A study of Mus musculus with 10 samples.

Results

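Npy, Nptx1, Obp2a, Slc14a1, Siglec15 and Arsi are 6 of the 56748 genes measured by bulk RNA sequencing in 10 gastric tumours of mice, and 6 of the 16750 genes that passed the filter on low values (a mean of at least 0.5 FPKM over the 10 libraries). They were picked as genes outside the gastric lineage with the largest falls in inflamed against desert tumours, so the difference between the groups is the reason for their choice. That difference is given below as a description, without a test. The 5 inflamed tumours were labelled Tff1-CreERT2;Apcfl/fl;Trp53fl/fl, with genetic mutation as the treatment: a tamoxifen-inducible Cre driven by the promoter of the gastric pit cell gene Tff1, with floxed alleles of the tumour suppressors Apc and Trp53. The 5 desert tumours were labelled wild type, with orthotopic allograft models as the treatment, that is, tumour cells of the same species placed in the stomach of a host. Whether wild type described the host or the graft was not stated, and neither age nor sex was given. Tumour type, genotype and the way the tumour arose coincided in all 10 tumours and cannot be told apart.

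The 6 genes come from unrelated families and are best known outside the stomach lining. Npy encodes neuropeptide Y, a peptide transmitter of brain and sympathetic neurons that acts on Y receptors and is trimmed and inactivated by peptidases. Nptx1 encodes a secreted neuronal pentraxin that gathers AMPA-type glutamate receptors at synapses, and Obp2a encodes a secreted odorant-binding protein of the lipocalin family, which carry small hydrophobic ligands. Slc14a1 encodes the urea transporter UT-B of red blood cells and the kidney, Siglec15 a sialic acid-binding receptor of osteoclasts and some myeloid cells that signals through the adaptor DAP12, and Arsi a member of the arylsulfatase family, whose enzymes need activation by SUMF1. No sample of normal stomach was analysed here, so the level of these genes in that tissue was not measured.

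The libraries held 15474313 to 15975770 reads in genes in inflamed tumours and 14148147 to 16951640 in desert tumours. FPKM values, reads scaled by gene length and library size, had a library sum of 280795 to 356133 in the inflamed group and, without overlap, 236901 to 269525 in the desert group. Apc was at 5.33 to 8.29 FPKM in inflamed and 3.00 to 5.57 FPKM in desert tumours. Trp53 was at 7.05 to 10.4 against 1.89 to 3.47 FPKM, so neither gene was lower in the tumours with floxed alleles; a table of whole genes does not show the deleted part. Tff1 ranged from 0.242 to 37.8 FPKM in inflamed tumours and reached at most 0.0748 FPKM in desert tumours. The tissue label was checked with 12 gastric epithelial markers, whose summed level was 8298 to 42570 FPKM in inflamed and 57.5 to 106 FPKM in desert tumours. Tff2, a mucous neck cell product, was at 3751 to 10057 FPKM against 0 to 0.605 FPKM. The general epithelial gene Epcam was present in both groups, at 331 to 419 against 225 to 430 FPKM.

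Npy, the ligand gene, was abundant in desert tumours and present at a low level in inflamed tumours. Desert tumours 1 to 5 held 2089, 657, 402, 168 and 503 FPKM, and inflamed tumours 1 to 5 held 10.1, 6.08, 9.40, 10.9 and 7.77 FPKM. The groups did not overlap, and desert tumour 1 stood far above the other desert tumours while desert tumour 4 was the lowest. The means were 764 ± 762 FPKM in desert and 8.86 ± 1.94 FPKM in inflamed tumours (SD, n = 5 each), an 86.2-fold ratio, and the difference of mean log2(FPKM + 1), inflamed minus desert, was -5.81. Without desert tumour 1 the desert mean was 432 ± 205 FPKM (SD, n = 4), 0.566 times the mean of 5. Npy was the 15th most abundant of the tested genes by its desert mean and the 5698th by its inflamed mean. The inflamed values rested on 58 to 101 recovered reads (FPKM converted back to whole reads), so Npy transcript was detected in every inflamed library. In bulk tissue, fewer cells of a type and less RNA per cell cannot be told apart, for Npy as for the genes that follow. Npy lies at chr6:49799690-49806487 on the plus strand in the deposited table (ENSMUSG00000029819).

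Nptx1, the second of the secreted neuronal genes, was at 237, 176, 177, 119 and 190 FPKM in desert tumours 1 to 5, a 1.99-fold range. In inflamed tumours 1 to 5 it was at 0.773, 1.0, 0.417, 2.05 and 1.39 FPKM. The lowest desert tumour stood 58.1-fold above the highest inflamed tumour, the widest such gap of the 6 genes. The means were 180 ± 42.0 and 1.13 ± 0.627 FPKM (SD, n = 5 each), with a log2 difference of -6.43. By mean FPKM, Nptx1 ranked 142nd of the tested genes in desert and 13778th in inflamed tumours. The inflamed libraries held 38 to 163 Nptx1 reads and the desert libraries 11837 to 18976. Nptx1 lies at chr11:119429545-119438579 on the minus strand (ENSMUSG00000025582).

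Obp2a, the lipocalin gene, varied over more than 10-fold within the desert group and was the most uneven of the 6 among inflamed tumours. Desert tumours 1 to 5 held 155, 320.0, 1968, 442 and 1322 FPKM. Inflamed tumours 1 to 5 held 4.04, 2.79, 11.9, 0.0883 and 0 FPKM. The 2 lowest inflamed values stood for 1 read and for no read; 3 reads in inflamed tumour 5 would have been 0.246 FPKM, which is the level a count of 0 still allows there, for counting error only. The means were 841 ± 775 and 3.77 ± 4.88 FPKM (SD, n = 5 each), with a log2 difference of -7.53. Inflamed tumour 3 carried much of the inflamed mean, which was 1.73 FPKM over the other 4 tumours, and without desert tumour 3 the desert mean was 559.6 ± 522 FPKM (SD, n = 4). By its desert mean Obp2a was the 13th most abundant tested gene. It lies at chr2:25590055-25593338 on the plus strand (ENSMUSG00000062061), and RefSeq lists Lcn13 among its other names.

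Obp2b is a related gene 33.682 kb from Obp2a. It was at 0.178, 0.322, 3.48, 3.16 and 2.59 FPKM in desert tumours 1 to 5 and at 0.234 FPKM or less in inflamed tumours (log2 difference -1.26, limma adjusted p = 0.0129). Desert tumours 1 and 2 were the lowest for both genes. In the GENCODE M21 annotation the coding sequences have 528 bases each and are identical at 380 of 531 aligned columns (71.6%), with an unbroken identical run of up to 82 bases. The first 90 coding bases are printed here because they are nearly the same in both genes, so a short read from them could come from either; the 2 bases that differ are in capitals:
Obp2a: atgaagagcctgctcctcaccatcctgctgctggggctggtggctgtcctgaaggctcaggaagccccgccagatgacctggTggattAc
Obp2b: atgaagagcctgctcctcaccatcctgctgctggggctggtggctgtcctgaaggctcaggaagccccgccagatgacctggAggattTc
How the authors' counting treated such reads was not given. The Obp2b values are therefore uncertain, since Obp2a was far more abundant in the same desert tumours.

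The RefSeq promoter table (GRCm38.p6) held windows that could be printed for 2 of the 6 genes, Npy and Obp2a. They are shown because both genes were among the 15 most abundant of the desert tumours, and their upstream sequences differ in CpG content. Capitals mark TATAAA in Obp2a, which begins 30 bases before the end of the stretch, and ATAAA in Npy, which begins 20 bases before the end. The Obp2a stretch is chr2:25699824-25700042 on the plus strand and stops where the GENCODE transcript starts:
Obp2a: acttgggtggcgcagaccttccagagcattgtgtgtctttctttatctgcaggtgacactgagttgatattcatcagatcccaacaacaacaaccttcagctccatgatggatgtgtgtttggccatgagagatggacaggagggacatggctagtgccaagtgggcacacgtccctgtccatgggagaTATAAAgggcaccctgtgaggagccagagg
The Npy stretch is chr6:49822460-49822709 on the plus strand:
Npy: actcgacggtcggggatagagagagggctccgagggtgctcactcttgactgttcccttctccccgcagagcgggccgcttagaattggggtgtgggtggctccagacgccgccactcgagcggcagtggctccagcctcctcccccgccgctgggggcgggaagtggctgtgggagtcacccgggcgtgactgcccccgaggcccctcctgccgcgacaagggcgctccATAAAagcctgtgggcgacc
In the 250 bases before each RefSeq start, Obp2a had 2 CpG dinucleotides and 52.4% G and C, at a median of 6 and 52.4% over 32851 windows. Npy had 21 CpG dinucleotides and 69.2% G and C, and 83.7% of windows had fewer CpG. Both strands of these 250 bases were searched for 7 motifs. TATAAA was found in Obp2a and in 12.4% of all windows, and ATAAA, which TATAAA contains, in both genes and in 37.3% of windows. The SP1 box GGGCGG was found in Npy and in 32.7% of windows, and the SOX core ACAATG in Obp2a and in 10.7%. The CRE TGACGTCA (1.55% of windows), the AP-1 site TGACTCA (4.46%) and the TCF/LEF site CTTTGAT (3.21%) were found in neither. A match is a description of letters and not evidence of a bound site.

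**Figure D1:**
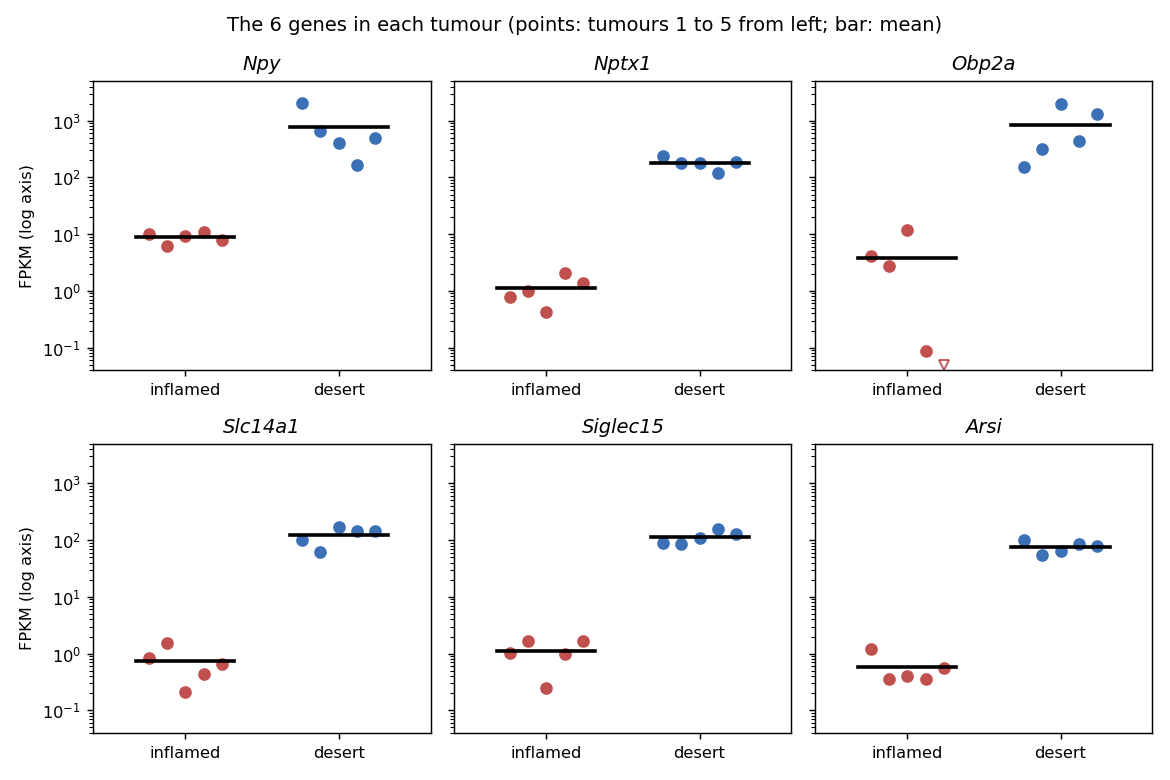
FPKM (log axis) of the 6 genes in each tumour, with tumours 1 to 5 from left to right in each group, inflamed in red and desert in blue, and a bar at the group mean. The groups do not overlap in any panel; Npy and Obp2a spread most among desert tumours, and the open triangle marks Obp2a listed at 0 FPKM in inflamed tumour 5, drawn at the lower edge.

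Slc14a1, the urea transporter gene, was at 101, 60.7, 167, 145 and 145 FPKM in desert tumours 1 to 5 and at 0.824, 1.52, 0.215, 0.444 and 0.658 FPKM in inflamed tumours 1 to 5. Desert tumour 2 was the lowest of its group. The means were 124 ± 42.7 and 0.731 ± 0.494 FPKM (SD, n = 5 each), a 169-fold ratio and a log2 difference of -6.13. Slc14a1 lies at chr18:78143306-78185334 on the minus strand (ENSMUSG00000059336). Its inflamed values came from 15 to 102 reads.

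Siglec15, the sialic acid receptor gene, was at 87.5, 84.4, 111, 155 and 129.9 FPKM in desert tumours 1 to 5. In inflamed tumours 1 to 5 it was at 1.03, 1.69, 0.247, 0.966 and 1.69 FPKM, on 5 to 33 reads. Inflamed tumour 3 was the lowest inflamed tumour for Siglec15, Slc14a1 and Nptx1 and the highest for Obp2a. The means were 114 ± 29.8 and 1.13 ± 0.602 FPKM (SD, n = 5 each), with a log2 difference of -5.77. Siglec15 lies at chr18:78086829-78100610 on the minus strand (ENSMUSG00000091055).

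Arsi, the arylsulfatase gene, had the smallest desert level of the 6, at 99.3, 54.6, 63.1, 84.7 and 79.2 FPKM in tumours 1 to 5. In inflamed tumours 1 to 5 it was at 1.22, 0.359, 0.404, 0.353 and 0.554 FPKM. Inflamed tumour 1 stood above the other inflamed tumours, on 64 reads against 16 to 27. The means were 76.2 ± 17.7 and 0.578 ± 0.369 FPKM (SD, n = 5 each), with a log2 difference of -5.61. Arsi lies at chr18:61044852-61051633 on the plus strand (ENSMUSG00000036412).

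For all 6 genes the lowest desert tumour was above the highest inflamed tumour; of the 16750 tested genes, 4091 (24.4%) were lower in inflamed tumours with no overlap between the groups. Since the 6 were chosen on that contrast, nothing is read from their count. By limma's moderated test with Benjamini-Hochberg adjusted p under 0.05, the inflamed group was higher for 5197 tested genes (31%) and lower for 5221 (31.2%). In the order of log2 differences Obp2a was the 2nd largest fall, Nptx1 the 5th, Slc14a1 the 6th, Npy the 8th, Siglec15 the 9th and Arsi the 11th. H19 (-9.54), Snorc (-7.21), Comp (-6.81), Igf2 (-5.82) and Col2a1 (-5.67) stood between or above them and were not among the 6. Arsi was the last gene inside the choice, at -5.61, and the next gene named here outside it was the fibroblast growth factor gene Fgf3, at -5.53.

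Among the 5 desert tumours the 6 genes fell into an uneven pair and a group of 4 with smaller spread. The SD of log2(FPKM + 1) over desert tumours was 1.50 for Obp2a and 1.31 for Npy. It was 0.59 for Slc14a1, 0.37 for Siglec15, 0.36 for Nptx1 and 0.34 for Arsi. Over the 8037 genes with a desert mean of at least 5 FPKM the median of this SD was 0.20. A smaller SD than that of Obp2a was seen in 99.7% of them, and a smaller SD than that of Arsi in 83.0%. All 6 genes therefore varied more among desert tumours than the median of these 8037 genes. Genes matched to the 6 by level were not compared.

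The uneven pair did not vary together. In desert tumour 1 Npy was 1.94 above its desert mean on the log2(FPKM + 1) scale and Obp2a was 1.86 below its own. In desert tumour 3 Obp2a was 1.80 above its mean while Npy lay at -0.43. Npy and Nptx1 were both lowest in desert tumour 4, at -1.68 and -0.55. Slc14a1, Siglec15 and Arsi were all at their lowest in desert tumour 2, at -0.93, -0.39 and -0.44. These are 5 tumours, and the deviations are given as a description.

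**Figure D2:**
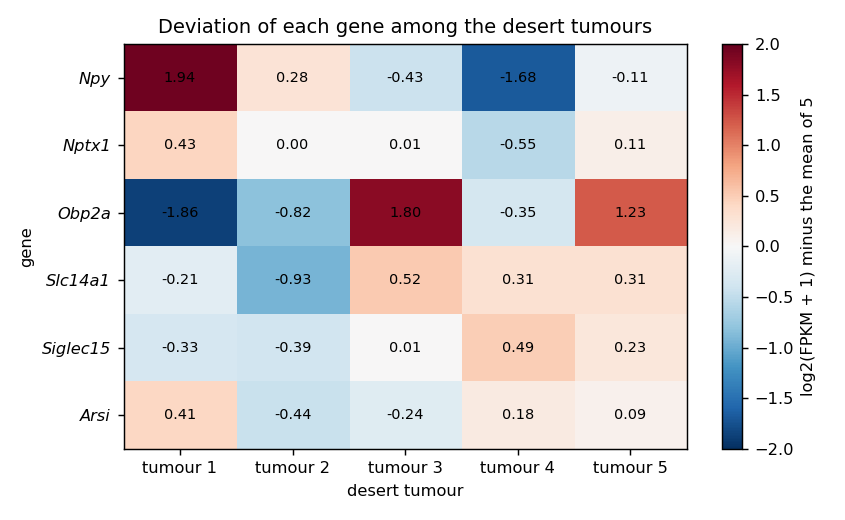
Deviation of each gene in each desert tumour from its mean over the 5 desert tumours, on the log2(FPKM + 1) scale, red above and blue below the mean. Npy is highest (1.94) and Obp2a lowest (-1.86) in tumour 1, and the other 4 genes stay within 1 of their means.

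Likeness of pattern was measured as the root mean square difference of log2(FPKM + 1) over the 10 tumours, each gene centred on its mean. Siglec15 and Slc14a1 were each other's closest gene, at 0.35. Npy was closest to Igf2, the fetal growth factor gene (0.49), then to the type II collagen gene Col2a1 (0.67) and to Mir483, a microRNA gene (0.75). Igf2 was at 212.7, 74.7, 38.5, 42.9 and 32.7 FPKM in desert tumours 1 to 5, highest in tumour 1 as Npy was. Nptx1 was closest to Comp (0.36), which encodes a cartilage matrix protein, then to Snorc (0.57) and Siglec15 (0.60). Slc14a1 was next closest to Arsi (0.53) and Comp (0.59), and Siglec15 to Prss56 (0.42) and Arsi (0.44). Arsi was closest to Mdk (0.31), which encodes the growth factor midkine, then to Chrnd (0.38) and Evx1 (0.40). No gene came as near to Obp2a, whose closest were Comp (1.36), Slc14a1 (1.47) and Snorc (1.54). The measure over 10 tumours includes the difference between the groups. Within the 5 desert tumours alone, Siglec15 was the 154th closest of 7616 genes to Slc14a1, and Slc14a1 the 2989th closest to Siglec15.

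Position was not used to choose the genes, and 3 of the 6 lie on chromosome 18, which holds 440 (2.63%) of the tested genes and 7 of the 100 largest falls. Siglec15 and Slc14a1 are neighbours on the minus strand, 42.7 kb apart with no gene of the table between them, while Arsi lies elsewhere on the chromosome. Over chromosome 18 as a whole 233 tested genes were lower and 82 higher in inflamed tumours, and the median log2 difference was -0.37, the lowest of 20 chromosomes. Chromosome 15 (-0.34) and chromosome 7 (-0.30) had medians close to it, and the median of all tested genes was -0.0072. The part of this shift in the differences of Slc14a1, Siglec15 and Arsi was not tested.

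The genes next to the 6 had smaller differences. The choice of the 6 among the largest falls made this nearly certain, so nothing is read from it. Neighbours were the 2 named genes on each side in order of start position, leaving out the 6 themselves. Of 20 distinct neighbours 13 were tested, 3 were higher and 7 lower in inflamed tumours (limma, adjusted p under 0.05) and 3 were not called. Over all tested genes 31% were higher and 31.2% lower. On one side of the Siglec15 and Slc14a1 pair, Epg5, an autophagy gene 8.6 kb from Siglec15, averaged 3.97 ± 0.328 FPKM in the inflamed group and 6.10 ± 0.885 FPKM in the desert group (SD, n = 5 each, log2 difference -0.51, limma adjusted p = 0.00105). On the other side, the second urea transporter gene Slc14a2 lay 4.028 kb from Slc14a1 and reached at most 0.0378 FPKM in any tumour. Setbp1, the next named gene, lay 608 kb from Slc14a1. It was higher in inflamed tumours, at 2.81 ± 0.435 against 0.471 ± 0.572 FPKM (SD, n = 5 each, log2 difference 1.44, limma adjusted p = 0.000149). Beyond Epg5, Pstpip2, which encodes an adaptor protein of macrophages, had a log2 difference of -2.59 (limma adjusted p = 3.02e-07). Its end lies nearer to Siglec15 than the counted neighbour 7SK, 192 kb away, but its start lies further off. The order of start positions left Pstpip2 out of the 20, and it was picked after its value was seen.

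Beside Nptx1, the mTORC1 subunit gene Rptor fell by 0.78 and Endov by 0.65 in inflamed tumours, and Rnf213 was higher by 0.77, all as log2 differences (limma adjusted p from 4.60e-06 to 0.00518). The named neighbours of Npy lay 281 to 432 kb away. Of these, Pals2 fell by 0.55, Fam221a and Gsdme were not called, and Stk31 was below the filter. Beside Arsi, Tcof1, a ribosome biogenesis gene, fell by 0.69, and Camk2a, 7.056 kb away, stayed at 0.79 FPKM or less in every tumour. Beside Obp2a, the lipocalin genes Lcn6 and Lcn10 were below the filter. Bmyc, 3.412 kb from Obp2a, took the values 14.7, 17.1, 11.9, 5.61 and 5.59 FPKM in inflamed tumours 1 to 5, against 37.9, 21.5, 38.2, 20.7 and 47.5 FPKM in the 5 desert tumours (log2 difference -1.56, limma adjusted p = 0.00206).

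**Figure D3:**
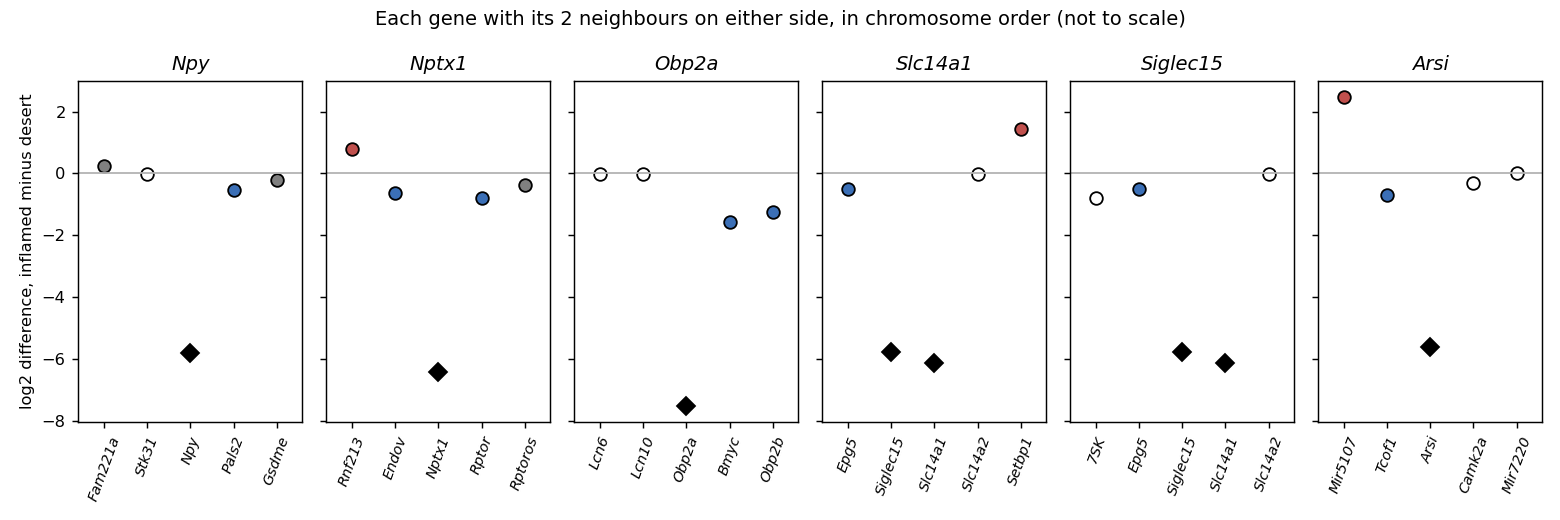
Difference of mean log2(FPKM + 1), inflamed minus desert, for each of the 6 genes (black diamonds) and its 2 named neighbours on each side in chromosome order, not to scale. Red circles were higher and blue lower at an adjusted p under 0.05, grey were not called and white were below the filter. Every neighbour drawn that is not one of the 6 lies between -2 and 3, above all 6 genes, which the choice of the 6 made nearly certain. Pstpip2 is not drawn.

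Relatives of the 6 genes in protein families and pathways went in both directions. Over 6 lists, 47 of 83 genes were tested, 20 were higher in inflamed tumours, 12 lower and 15 not called, with a median log2 difference of 0.23 against -0.0072 over all tested genes, of which 31% were higher and 31.2% lower. After rescaling to TPM (an equal sum in every library), 14 were higher and 18 lower, so which direction held more genes depended on the scale.

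In the NPY system 2 of 6 tested genes were lower and 2 higher, while 5 were higher with voom on recovered reads and 6 with no filter on low values. Dpp4, which encodes a membrane peptidase that trims NPY, was at 31.8, 36.0, 33.8, 75.9 and 31.5 FPKM in desert tumours 1 to 5 and at 1.69 ± 0.571 FPKM in inflamed tumours (SD, n = 5, log2 difference -3.93, limma adjusted p = 2.16e-07). Pam, whose enzyme amidates peptide ends, was at 26.4 ± 15.1 FPKM in desert and 10.9 ± 1.11 FPKM in inflamed tumours (SD, n = 5 each, log2 difference -1.05, limma adjusted p = 0.00846). The gut peptide gene Pyy went the other way, at 4.59 to 8.93 FPKM in inflamed tumours and listed at 0 in all 5 desert tumours (limma adjusted p = 4.11e-08). The receptor genes were low in both groups. In desert tumours Npy1r reached at most 0.252 FPKM, Npy2r 0.0623 FPKM and Npy4r 0.990 FPKM, and Npy5r and Npy6r were listed at 0. In inflamed tumours Npy1r, Npy2r, Npy4r, Npy5r and Npy6r reached at most 0.629, 0.705, 1.18, 0.0257 and 0.0223 FPKM. Npy4r, the only tested receptor gene, was not called (limma adjusted p = 0.898). The prohormone convertase genes Pcsk1 and Pcsk2, whose products cut the NPY precursor, stayed at 0.0349 and 0.0133 FPKM or less in desert tumours. They reached 1.29 and 0.521 FPKM in inflamed tumours.

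Of the pentraxins and AMPA receptor subunits 3 of 11 genes were tested. Nptx2, a second neuronal pentraxin gene, took the values 44.6, 67.3, 34.0, 27.5 and 34.2 FPKM in inflamed tumours 1 to 5, against 39.7, 18.6, 18.5, 12.6 and 12.3 FPKM in desert tumours 1 to 5. It was higher in inflamed tumours (log2 difference 1.06, limma adjusted p = 0.0135), with desert tumour 1 inside the inflamed range, and on the TPM scale it was no longer called (adjusted p = 0.0534), while Adam17, a sheddase gene of the list, was then called lower (adjusted p = 0.00919). Nptxr, the membrane-bound pentraxin, was at 1.04 ± 0.168 against 0.750 ± 0.194 FPKM (SD, n = 5 each) and was not called (limma adjusted p = 0.103). The AMPA receptor subunit genes Gria1, Gria2, Gria3 and Gria4 were at 0.674 FPKM or less in every tumour.

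Among the lipocalins 4 of 6 tested genes were lower and 1 higher in inflamed tumours. The lower genes were Rbp4, Ptgds, Obp2b and Apod. The Obp2b values are uncertain, as said above, and Apod was not called in 5 of the other settings (limma adjusted p from 0.053 to 0.0649). Rbp4, which encodes the retinol carrier, averaged 9.70 ± 3.75 FPKM in the inflamed group and 36.0 ± 14.7 FPKM in the desert group (SD, n = 5 each, log2 difference -1.78, limma adjusted p = 0.000773). Ptgds, the prostaglandin D synthase gene, was at 0.516 ± 0.217 against 3.71 ± 1.50 FPKM (SD, n = 5 each, limma adjusted p = 4.52e-05). Lcn2, an iron-binding lipocalin of inflamed epithelium and neutrophils, was higher in inflamed tumours, at 95.2 ± 61.1 against 14.5 ± 16.9 FPKM (SD, n = 5 each, log2 difference 3.00, limma adjusted p = 0.00216).

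Around Slc14a1, the urea list had 2 lower, 1 higher and 2 uncalled genes of 5 tested. Slc25a15, the mitochondrial ornithine carrier, averaged 5.50 ± 0.637 FPKM in the inflamed group and 19.1 ± 3.97 FPKM in the desert group (SD, n = 5 each, log2 difference -1.61, limma adjusted p = 2.54e-06). Ass1, argininosuccinate synthase, was at 9.43 ± 1.75 against 31.9 ± 16.8 FPKM (SD, n = 5 each, log2 difference -1.56, limma adjusted p = 0.000317). Arg2, one of the arginase genes that release urea, was higher, at 2.11 ± 0.821 against 0.752 ± 0.133 FPKM (SD, n = 5 each, limma adjusted p = 0.00209). The other arginase gene, Arg1, was not called, but passed without inflamed tumour 4 (adjusted p = 0.0384), which made the count of higher genes 2. Otc, Cps1 and Nags, which act early in the urea cycle, were below the filter.

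Around Siglec15, 10 of 15 tested genes were higher in inflamed tumours and 1 was lower. Among related receptor genes, Siglece averaged 1.65 ± 0.439 FPKM in the inflamed group and 0.232 ± 0.137 FPKM in the desert group (SD, n = 5 each, limma adjusted p = 6.44e-05), and Siglecf and Cd33 were also higher. Siglec1, the sialoadhesin gene of macrophages, was not called, at 0.70 ± 0.272 against 0.736 ± 0.322 FPKM (SD, n = 5 each, limma adjusted p = 0.904), and Cd22 and Mag were below the filter. Tyrobp, which encodes the adaptor DAP12, was at 8.57 to 29.9 FPKM in inflamed and 3.94 to 9.97 FPKM in desert tumours (log2 difference 1.13, limma adjusted p = 0.0112). The exception was St6galnac2, an enzyme that adds sialic acid to O-linked glycans, at 11.0 ± 1.86 against 33.5 ± 1.65 FPKM (SD, n = 5 each, log2 difference -1.54, limma adjusted p = 7.23e-07). The count of lower genes was 2 without desert tumour 4 and 3 after rescaling to TPM.

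Around Arsi, 5 of 12 tested sulfatase genes were higher in inflamed tumours and 3 lower, and the 3 lower ones were 1 without inflamed tumour 1 or 4 or without desert tumour 3 or 5. Sulf1, which encodes an extracellular heparan sulfatase, averaged 5.16 ± 1.78 FPKM in the inflamed group and 0.454 ± 0.286 FPKM in the desert group (SD, n = 5 each, log2 difference 2.04, limma adjusted p = 2.16e-05). Galns, a lysosomal sulfatase gene, was higher by 0.79 (limma adjusted p = 3.52e-05). The activator genes Sumf1 and Sumf2 were higher by 0.29 and 0.32 as deposited, calls that were lost after rescaling to TPM (adjusted p = 0.94 and 0.464). Arsj, a close relative of Arsi, reached at most 0.237 FPKM in any tumour. After rescaling to TPM 2 sulfatase genes were higher.

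**Figure D4:**
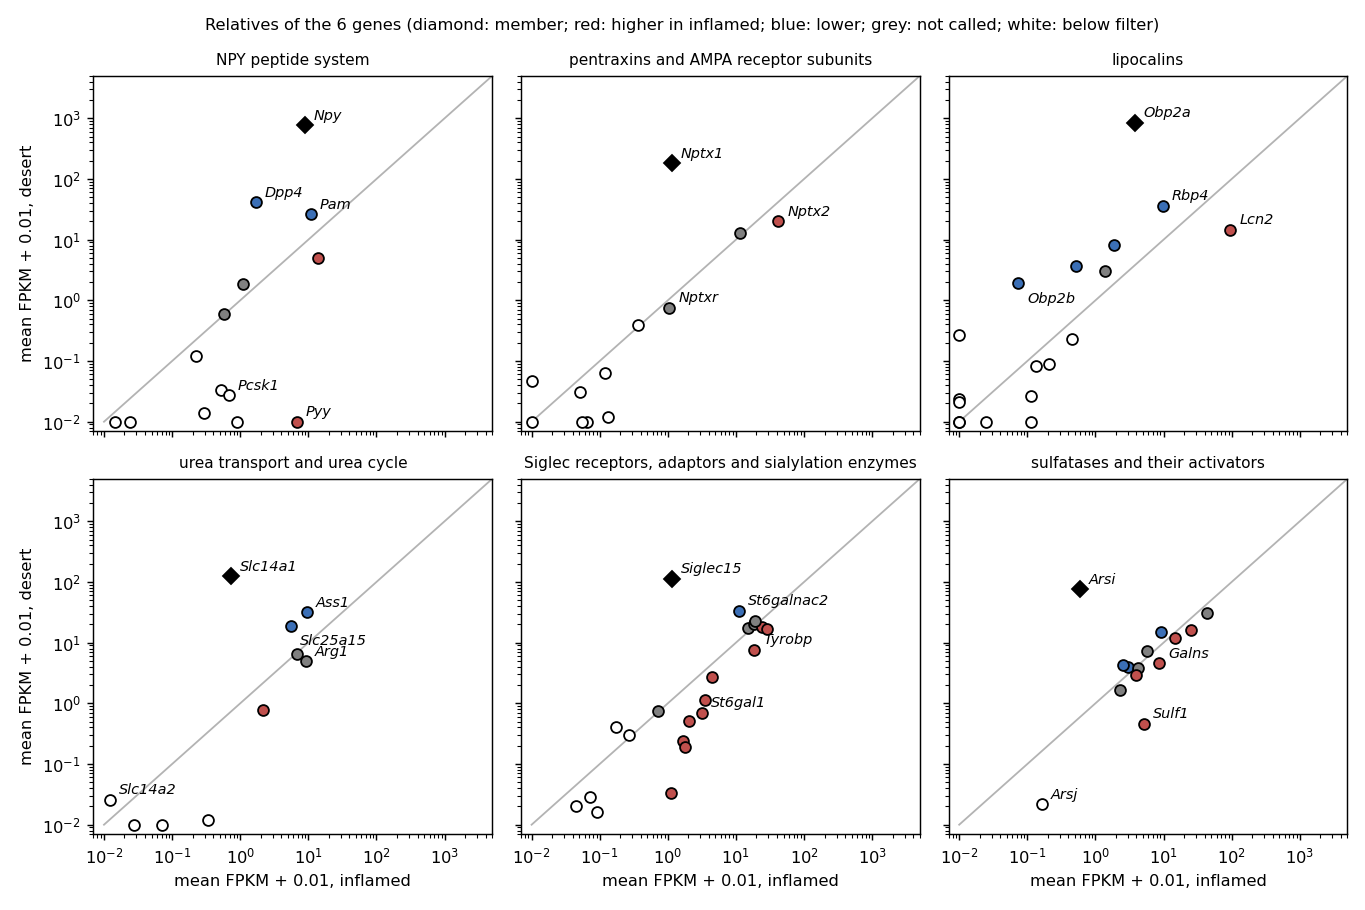
Mean FPKM + 0.01 in inflamed (x) and desert tumours (y), both log axes, for the 6 lists of relatives, n = 5 tumours each; the line marks equal levels. The black diamonds are the 6 genes. Circles are red where higher in inflamed tumours, blue where lower, grey where not called and white where below the filter. No circle lies as far above the line as the diamond of its panel, which the choice of the 6 made nearly certain.

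Cell types known for these genes were looked for with marker lists, as summed FPKM per tumour; their part in the results was not tested. Of 14 pan-neuronal markers, relevant to Npy and Nptx1, 3 were tested, of which Uchl1 and Map2 were lower in inflamed tumours and Tubb3 was higher; 4 were higher with voom on recovered reads and 6 with no filter. The whole list summed to 15.8 to 24.6 FPKM in desert and 7.82 to 12.7 FPKM in inflamed tumours, carried in desert tumours by Uchl1, a ubiquitin hydrolase gene (15.6 ± 2.78 against 3.20 ± 0.663 FPKM, SD, n = 5 each, limma adjusted p = 6.07e-07). Map2, a microtubule-associated protein gene of neurons, was at 3.39 ± 0.870 FPKM in desert and 0.732 ± 0.227 FPKM in inflamed tumours (SD, n = 5 each, log2 difference -1.33, limma adjusted p = 2.08e-05). Only Uchl1 and Map2 of the list had a higher mean in desert than in inflamed tumours, and 12 of the 14 were under 1 FPKM in every desert tumour. Of the others, Rbfox3, Elavl3, Elavl4 and Stmn2 were at 0.137 FPKM or less in every desert tumour and Nefl was listed at 0. Tubb3, a neuronal tubulin gene, was at 0.325 ± 0.171 FPKM in desert and 3.93 ± 1.69 FPKM in inflamed tumours (SD, n = 5 each, log2 difference 1.84, limma adjusted p = 2.65e-05). Of 10 sympathetic and chromaffin markers 4 of 6 tested, Chga, Chgb, Ddc and Hand2, were higher in inflamed tumours. Chga and Chgb had the largest differences of this list (log2 differences 3.59 and 3.07, limma adjusted p = 9.06e-05 and 1.49e-06). Across the inflamed group Chga spanned 4.34 to 48.6 FPKM and Chgb 4.57 to 14.2 FPKM, while no desert tumour exceeded 0.480 FPKM for either. The vesicular monoamine transporter gene Slc18a1 was lower (log2 difference -2.05, limma adjusted p = 3.13e-05), and 3 genes were lower with voom and 2 with no filter. Phox2a, a transcription factor gene of sympathetic neurons, was below the filter. It was at 0.362 to 1.21 FPKM in desert tumours and at most 0.0646 FPKM in inflamed tumours. Hand2 was listed at 0 in all desert tumours. Dbh was at 0.0484 FPKM or less there and at 0.171 FPKM or less in inflamed tumours. Th, also below the filter, was at 0.110 to 0.647 FPKM in desert and 0.0502 to 0.218 FPKM in inflamed tumours. Which cells held the transcripts of this list was not tested.

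For Slc14a1, the 10 erythroid markers summed to 34.7 to 155 FPKM in desert and 3.19 to 76.1 FPKM in inflamed tumours, with overlap. Of 7 tested, 4 were lower in inflamed tumours and none higher, and 2 were lower without inflamed tumour 2 or without desert tumour 4. The lower genes were Hba-a2, Alas2, Klf1 and Epor, of which the erythroid transcription factor gene Klf1 averaged 1.81 ± 0.561 FPKM in desert and 0.741 ± 0.288 FPKM in inflamed tumours (SD, n = 5 each, limma adjusted p = 0.00452). The globin genes carried the sum: Hbb-bs was at 76.9, 26.7, 17.3, 46.5 and 13.5 FPKM in desert tumours 1 to 5 and at 0.370 to 38.4 FPKM in inflamed tumours (log2 difference -1.82, limma adjusted p = 0.0758). Hba-a1 was at 14.0 to 59.0 against 0.629 to 25.4 FPKM (log2 difference -1.67, limma adjusted p = 0.0556). Neither globin was called as deposited, and both were called lower on the TPM scale (adjusted p = 0.0428 and 0.0276) and without inflamed tumour 3 or 5. The anion exchanger gene Slc4a1 was at 0.129 FPKM or less in desert tumours, where Slc14a1 was at 60.7 to 167 FPKM. Desert tumour 1 had the highest erythroid sum, and Slc14a1 was below its desert mean there.

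For Siglec15, the 11 osteoclast markers summed to 20.9 to 30.0 FPKM in desert and 68.3 to 77.3 FPKM in inflamed tumours, the reverse of Siglec15. Of 7 tested, 4 were higher in inflamed tumours: Atp6v0d2 (log2 difference 3.24, limma adjusted p = 5.38e-06), Acp5 (2.48), Mmp9 (2.49) and Itgb3 (1.79). Nfatc1 was lower, and with no filter 2 genes were lower. Oscar, below the filter, went in the direction of Siglec15, at 0.247 to 0.807 FPKM in desert and at most 0.165 FPKM in inflamed tumours. The calcitonin receptor gene Calcr was listed at 0 in every tumour. The 10 macrophage markers, all tested, summed to 54.3 to 127 FPKM in desert and 81.5 to 303 FPKM in inflamed tumours. Of these 4 were higher in inflamed tumours and none lower, and 8 were higher without inflamed tumour 4.

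Most tested cartilage genes were also higher in desert tumours. The 12 chondrocyte markers summed to 589 to 855 FPKM in desert and 89.0 to 115 FPKM in inflamed tumours, without overlap, and 6 of 7 tested were lower in inflamed tumours. Comp, Snorc, Sox9 and Col2a1 carried most of the desert sum. Comp, Snorc and Col2a1 were among the largest falls, and the list was made with earlier results known. The sum and the count are therefore given as a description. Sox9, a transcription factor gene of cartilage and other tissues, was at 152 ± 12.7 FPKM in desert and 54.8 ± 7.15 FPKM in inflamed tumours (SD, n = 5 each, log2 difference -1.47, limma adjusted p = 5.79e-07). Col9a1 and Col9a2, cartilage collagen genes, had log2 differences of -3.83 and -3.68 (limma adjusted p = 4.54e-07 and 2.69e-06). Chad, a cartilage matrix gene, went the other way, at 39.4 ± 5.27 FPKM in the inflamed group against 8.21 ± 2.04 FPKM in the desert group (SD, n = 5 each, limma adjusted p = 1.35e-06). The matrix genes Acan, Hapln1 and Matn1 were at 0.0651 FPKM or less in every desert tumour, where Comp, Snorc and Col2a1 were high. The 9 Schwann cell and glial markers overlapped between the groups, at 37.8 to 63.3 FPKM in desert and 53.5 to 65.0 FPKM in inflamed tumours. Of 4 tested, 2 were higher in inflamed tumours, among them S100b, whose call did not hold without inflamed tumour 1 or without desert tumour 1, 2 or 4 (adjusted p of 0.054, 0.0579, 0.0547 and 0.0541). The other, the myelin gene Mbp, was not called on the TPM scale (adjusted p = 0.594) or with voom (0.0601), so that on TPM none was higher and 1 was lower; 1 was also lower under quantile normalization, with voom, with no filter and without each inflamed tumour in turn. Of the gastric epithelial markers 9 of 12 were higher in inflamed tumours and 1, the transcription factor gene Sox2, was lower, and 6 of 10 pan-epithelial markers were higher and 1 lower.

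**Figure D5:**
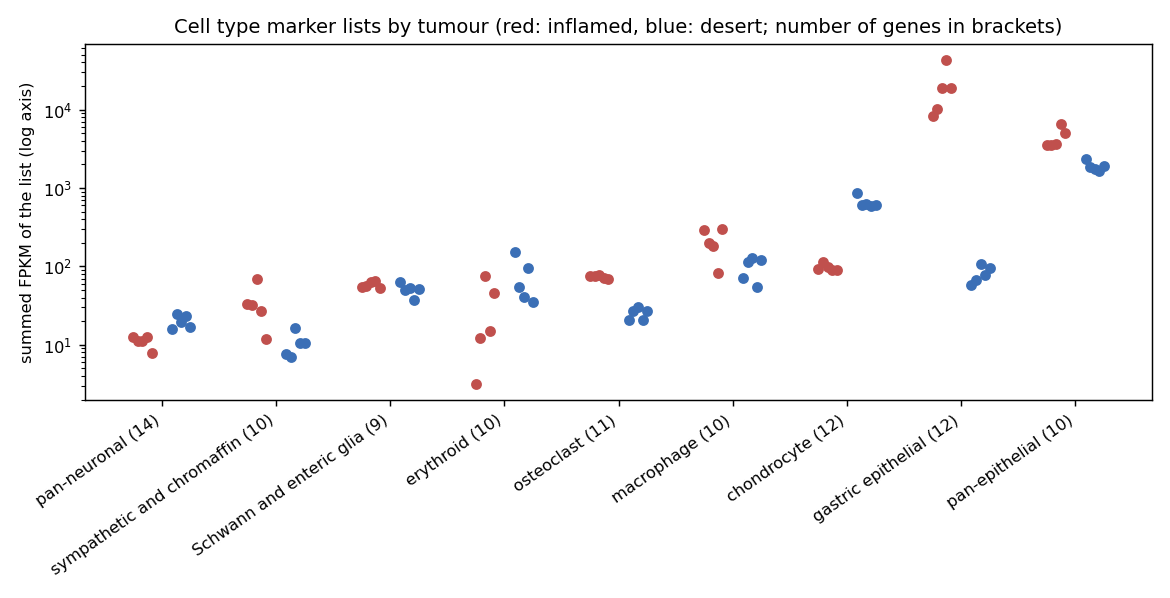
Summed FPKM (log axis) of each cell type marker list in each tumour, inflamed in red and desert in blue, with tumours 1 to 5 from left to right and the number of genes in brackets. Chondrocyte (589 to 855 against 89.0 to 115 FPKM) and pan-neuronal sums are higher in every desert tumour. The pan-neuronal sum is carried there by Uchl1, and only Uchl1 and Map2 of that list have a higher desert mean. Osteoclast, gastric epithelial and pan-epithelial sums are higher in every inflamed tumour.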

How the data were processed

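Total RNA of 10 mouse gastric tumours, 5 inflamed and 5 desert, was extracted with TRIzol and sequenced in bulk, per the labels' protocols. The protocol speaks of fewer tumours than the 10 labelled samples. The authors deposited FPKM values (reads relative to gene length and sequencing depth), a column per tumour. The sources name no strand setting, and aligner, counter and annotation are not given in the sources used here. Build mm10 is named in the submitters' processing notes, but start positions in the table differ from the GRCm38 annotation (Npy starts at 49799690 in the table), so gene positions are the table's own and no build is claimed for them. Promoter sequences came from RefSeq and coding sequences from GENCODE, both on GRCm38. FPKM times gene length gave whole multiples of 1 step per library (100% of values within 0.01), from which reads were recovered.

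Genes were compared on log2(FPKM + 1), a scale that compresses changes at low levels, by the two-sided moderated test of limma 3.58.1 (R 4.3.3), with trend, robust moderation and no covariate. Genes needed a mean of at least 0.5 FPKM and were called at a Benjamini-Hochberg adjusted p under 0.05. Differences are inflamed minus desert. data.table (version 1.17.8), pandas 2.3.3 and Biopython 1.88 were also used. The test was run on simulated data in which few genes changed, unlike here, so that run gives no error rate for these calls. The 6 genes and the gene lists were chosen with earlier results of these data known. Besides the 6, the rule named the 2 genes on each side in order of start position and the 3 genes most alike in pattern. It also named the 2 largest differences and the 2 most abundant genes in each list, and Apc, Trp53 and Tff1. Other list genes named were chosen after their values were seen. In the gastric list Gif had no row of its own, and St6galnac2 had overlapping models, of which the longer was used. Of the largest falls, 1 gene is not reported here. Nothing says that the tumours of a group came from separate animals, so p-values measure only the spread between these samples. Alternatives were a pseudocount of 0.1, no filter or a mean of at least 5 FPKM, TPM, median-of-ratios and quantile scaling, voom on recovered reads (mean of at least 10), a block on tumour number, and the omission of single libraries. Intervals and floors cover counting error only.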

Additional observations from a re-analysis of the deposited data

Results flagged for a closer look

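The values in a group of 5 tumours were examined for a tumour far from the others, its gap to the nearest tumour being large against the range of the group. Of 140 gene and group pairs 19 met this. For normally distributed values chance gives about 1 in 20 pairs. FPKM values were not checked for that shape, so nothing is read from the count. The rate does not apply to 3 of the 19 pairs (Tff1 in desert tumour 4, Lcn10 and Slc14a2), where the other 4 tumours were listed at 0 and any value would have stood out. Among the 6 genes, Npy stood out in desert tumour 1 at 2089 FPKM and Arsi in inflamed tumour 1 at 1.22 FPKM. Desert tumour 1 was also high for Nptx2 (39.7 FPKM), Lcn2 (44.2 FPKM) and Ass1 (61.5 FPKM), the relatives of Nptx1, Obp2a and Slc14a1. Desert tumour 4, the lowest for Npy, stood out for Dpp4 (75.9 FPKM), Chgb (0.48 FPKM) and Tff1 (0.0748 FPKM). Desert tumour 2 stood out for Aif1 (1.57 FPKM), Gkn2 (3.88 FPKM) and the Slc14a1 neighbour Setbp1 (1.46 FPKM), and desert tumour 3 for Atp6v0d2 (3.98 FPKM) and the Obp2a neighbour Lcn10 (0.0562 FPKM). Inflamed tumour 4 stood out for Cd14 (25.0 FPKM), Gkn2 (18300 FPKM), Tff1 (37.8 FPKM) and the Npy neighbour Fam221a (7.12 FPKM). Inflamed tumour 2 stood out for Sox9 (67.2 FPKM) and for Slc14a2 (0.0115 FPKM).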

How the results depend on the processing

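With the other pseudocount, the other scalings (TPM, median-of-ratios, quantile) and each library left out, all 6 genes kept a negative difference. With a pseudocount of 0.1 the log2 differences were -7.32 for Nptx1, -7.34 for Slc14a1, -6.70 for Siglec15 and -6.91 for Arsi, and -8.85 for Obp2a. After rescaling to TPM they were -7.37, -7.24, -6.72, -6.78 and -8.54 for the same genes. With a mean of at least 5 FPKM, 2784 genes were higher and 3070 lower, 9 relatives were higher and 10 cell type markers were lower, since fewer genes were tested. Rescaling to TPM moved the median difference of all tested genes to -0.28 and gave 3769 higher and 6989 lower genes. Quantile normalization moved it to -0.11, with 4609 higher and 6146 lower, and turned Krt18, an epithelial keratin gene that was not called, to -0.44 (limma adjusted p = 0.0033); the cause was not tested. Leaving out each library gave 4829 to 5225 higher and 4911 to 5134 lower genes. With the tumour number as a replicate block, 4958 genes were higher and 4967 lower. The numbers did not pair the tumours: correlations of same-numbered deviations ran from -0.07 to 0.08, and 1 of 5 inflamed tumours correlated best with its own number. Reads of 0 to 163 per inflamed library limit the inflamed levels of the 6 genes.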
